A study of Bos taurus with 16 samples.

Results

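A total of 541 transcribed loci without an Ensembl identifier were enriched in the gluteus medius muscle of pre-weaned Holstein bull calves relative to subcutaneous adipose tissue. These loci are known by the XLOC number that the transcript assembly gave them, and all 541 came from the 16705 loci that carry such a number alone, among 42862 separate loci in all. Members were selected on their levels in the 2 tissues. A locus was a member when its mean over the 8 muscle libraries was at least 0.5 CPM (the count scaled by the library total) and at least 4 times its mean over the 8 adipose libraries. The muscle and adipose values below are therefore a description without a test. Treatment, the spread among calves and the numbering of the loci were not used to choose them.

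The calves were 21 days old at the start and received milk replacer with saline (CON, calves 1 to 4) or with 5-hydroxytryptophan (5-HTP, the immediate precursor of serotonin, calves 5 to 8) for 10 days. Both tissues of each calf were sequenced after poly-A capture, which gave 4 libraries for each treatment in each tissue. The calves had no other treatment or genotype in the labels, and each library was made from whole tissue. In such bulk samples, fewer cells of a type and less RNA per cell cannot be told apart.

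An XLOC locus arises when aligned reads are assembled into transcript models and the models are merged with the known annotation. A model that joins no annotated gene keeps only its number. Such loci can be non-coding RNAs, unannotated genes, or exons and ends of known genes that the annotation leaves out. In skeletal muscle, a small set of genes for contractile and energy-metabolism proteins takes a large part of all messenger RNA. The sequences and positions of the members were not used here, so their place in a gene is not described, and annotated neighbours are named by Ensembl identifier.

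Total counts over separate loci ranged from 15058963 to 22156739 in adipose libraries and from 18017558 to 25077800 in muscle libraries. A count of 3 corresponded to between 0.120 and 0.199 CPM in a library. This limit takes counting error alone into account. The muscle library of CON calf 1 stood apart, with 1739 CPM summed over the members against 2456 to 2945 CPM in the other muscle libraries. It was the lowest muscle library for 36.4% of the members. This was not particular to the members. It was lowest for 39.8% of annotated loci and 48.3% of other XLOC-only loci of at least 0.5 CPM in muscle. The share was 32.6% for the annotated loci that met the same values, although their summed CPM was the highest of the 8 at 560392 CPM. The muscle label could be checked through 1 symbol alone. IGFN1 (ENSBTAG00000046177), an annotated gene that encodes a sarcomere-associated protein of skeletal muscle, had 1038 to 4153 CPM in muscle and a mean of 0.148 CPM in adipose tissue.

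Members were a small share of the loci and a smaller share of the counts. They were 3.24% of all XLOC-only loci and 22.8% of the 2374 XLOC-only loci with a mean of at least 0.5 CPM in muscle. The same values were met by 767 of the 12814 annotated loci with a mean of at least 0.5 CPM in muscle, which is 5.99%. Summed over the members, the mean was 2655 CPM in muscle and 115 CPM in adipose tissue. Members took 0.174% to 0.294% of the counts of a muscle library, whereas the 767 annotated loci summed to 532994 CPM. The typical member was scarce, with a median of 1.38 CPM in muscle and an interquartile range of 0.734 to 3.40 CPM. By comparison, the median of the annotated loci that met the same values was 54.4 CPM.

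Abundance was concentrated in few members. The 58 members with at least 10 CPM in muscle held 63.6% of the summed member CPM, and the 10 highest held 32.4%. At the other end, 212 members lay between 0.5 and 1 CPM, 124 between 1 and 2 CPM and 104 between 2 and 5 CPM. In adipose tissue, 163 members (30.1%) had 0 counts in all 8 libraries, compared with 6.65% of the annotated loci that met the same values. Those annotated loci were more abundant, and the shares were not compared at equal abundance. Among members counted in adipose tissue, the median ratio of the means was 23.5. All 8 muscle libraries were above all 8 adipose libraries for 419 of the 541 members, where 9.87% of all loci with at least 0.5 CPM in muscle were so separated. This count follows from the rule and is given as a description. Within calves, muscle was above adipose tissue in all 8 for 471 members, in 7 for 54 members and in fewer for 16 members.

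**Figure D1:**
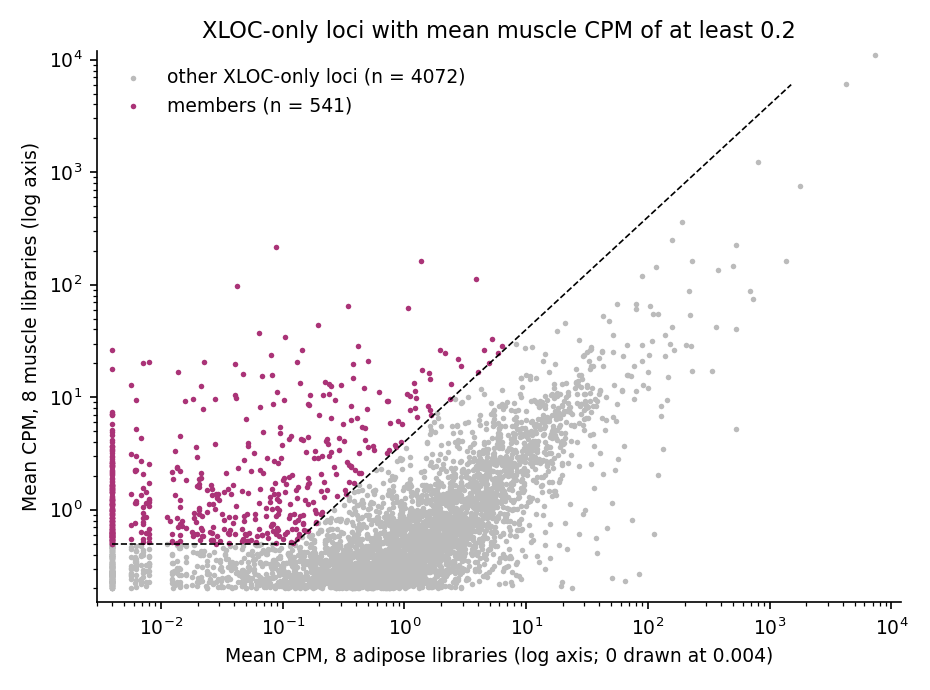
Mean CPM over 8 muscle libraries against mean CPM over 8 adipose libraries, both on log axes, with the thresholds of 0.5 CPM and 4 times drawn as dashed lines. Only XLOC-only loci above a lower limit on mean muscle CPM, given in the title, are drawn. The 541 members lie above both lines, and the 163 members with 0 counts in adipose tissue form the column at the left edge.

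The thresholds cut through a continuum of values. Just inside the limit on abundance were XLOC_017038, XLOC_039478 and XLOC_024117, at 0.5001 to 0.5007 CPM, and just outside were XLOC_017612, XLOC_039904 and XLOC_040379, at 0.4947 to 0.4974 CPM. Just inside the limit on the ratio were XLOC_019678, XLOC_003499 and XLOC_011446, at ratios of 4.01 to 4.06, and just outside were XLOC_003249, XLOC_005063 and XLOC_007980, at 3.91 to 3.95.

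The most abundant member was XLOC_039463. In muscle it had 81.9, 161, 269 and 266 CPM in CON calves 1 to 4, and 254, 225, 202 and 265 CPM in 5-HTP calves 5 to 8. CON calf 1 was lowest, CON calf 2 was next, and the 5-HTP calves lay between CON calf 2 and CON calves 3 and 4. Its mean was 216 CPM in muscle and 0.0883 CPM in adipose tissue. Its annotated neighbours in number, ENSBTAG00000044981 and ENSBTAG00000021099, were almost uncounted in muscle, at means of 0.0176 and 0.00616 CPM.

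XLOC_018387 was the next highest, with 111, 181, 134 and 133 CPM in CON calves and 212, 185, 171 and 171 CPM in 5-HTP calves. It had one of the lowest spreads among the members of at least 5 CPM, with a coefficient of variation (CV) within groups of 15.7%. XLOC_012747 had 64.9, 123, 65.9 and 118 CPM in CON calves and 155, 110, 135 and 122 CPM in 5-HTP calves. These 3 loci were the members above 100 CPM in muscle. CPM is not divided by transcript length, so the order of the loci is one of counts and not of transcript numbers.

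XLOC_008533 had 68.3, 128, 138 and 68.3 CPM in CON calves and 132, 50.9, 114 and 75.1 CPM in 5-HTP calves, so that calves of both groups were high and low. Its mean in adipose tissue was 0.0421 CPM. The next locus in number, XLOC_008534, was also a member, at 16.1 CPM in muscle and 0.0472 CPM in adipose tissue. XLOC_023716 ranged from 33.8 to 90.4 CPM over the 8 muscle libraries (median 65.9), XLOC_022603 from 16.6 to 95.4 CPM (median 63.5) and XLOC_017940 from 21.1 to 61.2 CPM (median 45.3). XLOC_023473 ranged from 13.4 to 57.1 CPM (median 42.7). XLOC_016781 was the member of the 10 with the most adipose counts, at a mean of 5.25 CPM, and it ranged from 9.20 to 57.6 CPM in muscle. The remaining locus of the 10 was XLOC_017327.

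**Figure D2:**
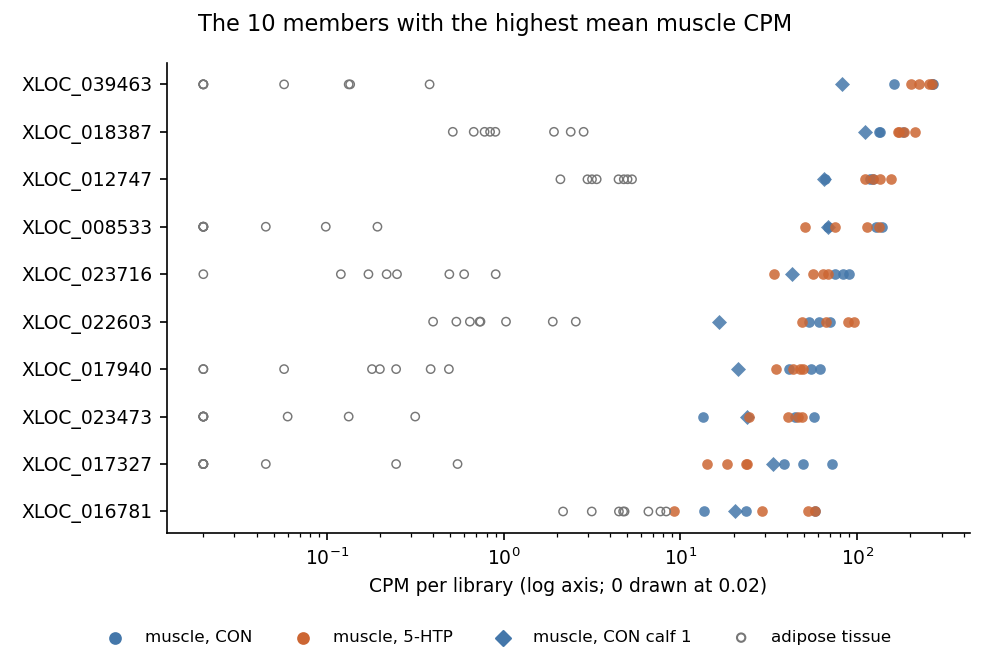
CPM per library on a log axis for the 10 members with the highest mean in muscle, with CON and 5-HTP muscle libraries in colour, CON calf 1 as a diamond and adipose libraries as open circles. All muscle libraries lie to the right of all adipose libraries for each of the 10 loci, and CON calf 1 is the lowest CON library for 8 of them.

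Among members with 0 counts in adipose tissue, XLOC_039641 had the highest level in muscle. It had 36.4, 24.9, 53.6 and 12.6 CPM in CON calves and 19.7, 12.5, 40.9 and 10.5 CPM in 5-HTP calves. Its mean of 26.4 CPM was at least 1281-fold higher than a floor of 3 counts over the 8 adipose libraries together. On the same floor, XLOC_035833 (17.7 CPM) was at least 857-fold higher and XLOC_014651 (7.37 CPM) at least 358-fold higher in muscle. XLOC_011635 (7.12 CPM) and XLOC_018536 (7.11 CPM) were at least 346-fold and 345-fold higher. The 3 of these loci with a spread under 32% in CV, XLOC_035833, XLOC_014651 and XLOC_018536, were counted at 4.57 CPM or more in every calf, whereas XLOC_011635 ranged from 0.226 to 17.8 CPM.

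Few members were numbered beside an abundant muscle gene. The assembly numbers its merged loci in order, and 5 of the 541 members (0.924%) had a number next to one of the 100 annotated loci with the highest mean CPM in muscle. The share was 0.546% (10 of 1833) for the other XLOC-only loci of at least 0.5 CPM in muscle and 0.144% for all XLOC-only loci. Within 5 numbers the shares were 2.22% for members and 2.40% for the other detected loci. Next to any annotated locus of at least 100 CPM they were 4.25% and 5.56%, so the order of the 2 groups turned with the definition. These shares include loci in long stretches without annotated loci (described below), which can have an annotated neighbour only at an end. Such stretches held 62.1% of the members and 45.7% of the other detected loci, so the order of the groups is not interpreted.

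The 5 members were much less abundant than their neighbours. XLOC_002038 (2.94 CPM in muscle and 0 counts in adipose tissue) was beside ENSBTAG00000009703 (16163 CPM), which ranked 7 among annotated loci in muscle. XLOC_027574 (20.6 CPM) was beside ENSBTAG00000054745 (9339 CPM), and XLOC_017327 (34.2 CPM) was beside ENSBTAG00000052709 (2664 CPM). XLOC_002843 and XLOC_026814 were beside ENSBTAG00000004079 (1321 CPM) and ENSBTAG00000047155 (878 CPM). The calves did not follow the same order in each pair. XLOC_027574 was highest in CON calf 1 (34.3 CPM), the calf with the lowest value of its neighbour (4701 CPM). XLOC_026814 was lowest in CON calf 1 (7.75 CPM), the calf with the highest value of its neighbour (1411 CPM).

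The neighbours were also counted over 767 annotated loci, a larger class. Of the members, 33 (6.10%) were next to one of the annotated loci that met the same values, compared with 3.11% of the other detected XLOC-only loci. A further count gave 205 members (37.9%) next to another member. These 205 loci formed 68 runs of consecutive numbers, and 336 members stood alone.

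The numbering itself had 2 parts. In 30 stretches of 160 to 798 consecutive numbers there was no annotated locus, and these stretches held 13543 of the 16705 XLOC-only loci (81.1%). Elsewhere, at most 19 XLOC-only loci followed each other between annotated loci. Members were found in both settings, with 336 (62.1%) inside the stretches and 205 outside, and the split into settings was made after the values were seen. The other detected XLOC-only loci were divided into 838 inside (45.7%) and 995 outside. Each stretch held between 2 and 43 members. All 33 members next to an annotated locus that met the same values lay outside the stretches, 16.1% of the members there. The share was 5.73% for the other detected loci outside, and 0% for both groups inside.

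Members inside and outside the stretches differed in level. The median in muscle was 1.02 CPM inside and 2.91 CPM outside, and 11 members inside and 47 outside reached 10 CPM. The members outside held 73.7% of the summed member CPM, and of the 10 most abundant members XLOC_023473 alone lay inside. The other detected XLOC-only loci had medians of 0.852 CPM inside and 1.93 CPM outside. The share of members with 0 counts in all adipose libraries was similar in both settings, at 30.4% inside and 29.8% outside. Inside the stretches, 52.4% of the members had a member as a neighbour, against 3.10% of the other detected loci. Outside, the shares were 14.1% and 2.21%. The other detected loci, a larger class, had a locus of their own class as a neighbour in 27.3% inside and 12.1% outside. The classes differed in size, with 205 members and 995 other detected loci outside the stretches. A larger class has more chances of a neighbour of its own kind, so the own-class shares are not compared between the classes.

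**Figure D3:**
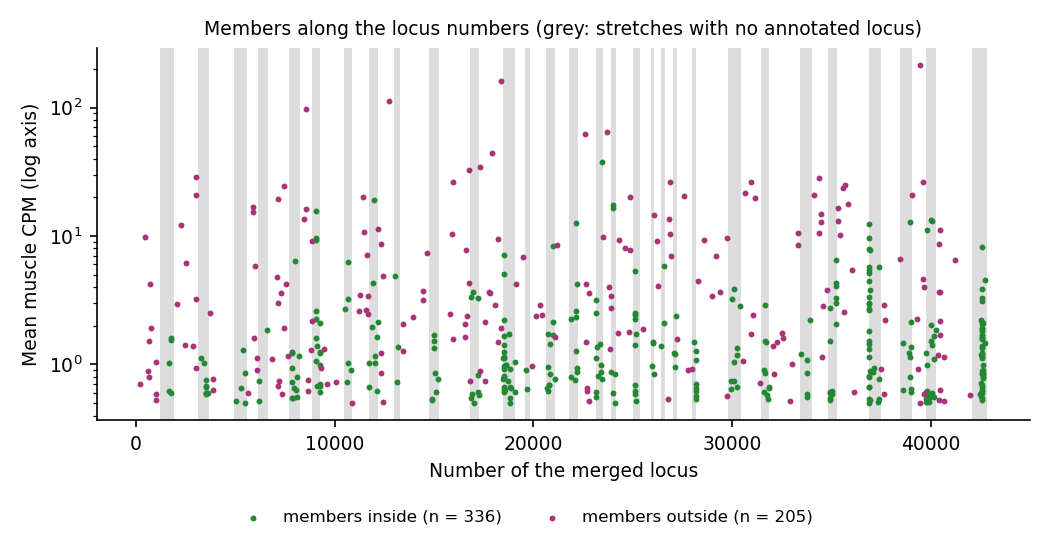
Mean muscle CPM on a log axis against the number of the merged locus for the 541 members, with the 30 stretches that hold no annotated locus in grey. The 336 members inside the stretches reach 37.3 CPM at most, and the 205 members outside reach 216 CPM.

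All 10 runs of 5 or more members lay inside the stretches and together held 73 members. The longest were XLOC_042587 to XLOC_042597 and XLOC_042599 to XLOC_042609, with 11 members each, separated by 1 locus that missed the limit on abundance. Over their 22 members, the summed CPM in muscle was 33.2, 66.1, 57.9 and 27.0 in CON calves and 36.2, 58.7, 33.4 and 22.8 in 5-HTP calves. Calves 2, 3 and 6 were high and the others lower, so that both treatment groups held high and low calves. In adipose tissue the same 22 members summed to between 0.148 and 0.798 CPM.

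The next longest run, XLOC_018534 to XLOC_018542, had 9 members and continued after 1 locus to XLOC_018548. Of these 15 consecutive loci, 14 were members, and 11 of the 14 had 0 counts in all adipose libraries. Their summed CPM in muscle was 19.5, 41.2, 35.1 and 21.5 in CON calves and 19.6, 30.2, 21.7 and 13.5 in 5-HTP calves. As in the previous runs, calves 2, 3 and 6 were the highest. A further group of 22 members among the 29 loci from XLOC_036898 to XLOC_036926 had 49.0, 90.7, 79.2 and 62.4 CPM in CON calves and 80.7, 66.0, 55.9 and 53.4 CPM in 5-HTP calves. Here calf 5 took the place of calf 6 among the 3 highest. This group was not an unbroken run, and it was chosen outside the rule for naming members. Whether consecutive members belong to one transcript cannot be told from the counts.

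The spread among calves was wide. The median CV of CPM within a treatment group was 47.0% for the members and 24.2% for the annotated loci that met the same values, which were more abundant. Without CON calf 1 the median for members was 42.7%. At equal abundance the gap was smaller. Between 0.5 and 1 CPM the medians were 57.6% for members and 56.1% for the annotated loci that met the same values, and between 2 and 5 CPM they were 41.8% and 37.5%. Between 10 and 100 CPM they were 31.0% (55 members) and 23.6% (241 annotated loci), and all annotated loci of that level had 16.6%. Counting error alone would give 26.3% for members between 0.5 and 1 CPM and 5.08% for members between 10 and 100 CPM, so the spread exceeded it in each class.

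**Figure D4:**
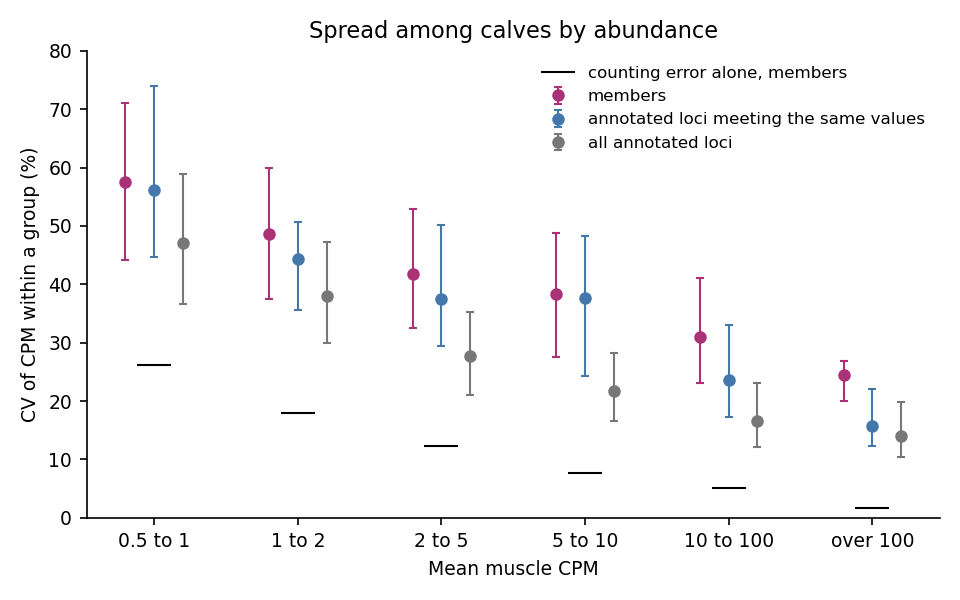
CV of CPM within a treatment group (mean of CON and 5-HTP, 4 calves each) by class of mean muscle CPM, as the median with the interquartile range over loci, for members, annotated loci that met the same values and all annotated loci. The black dashes show the counting error of members, from 26.3% in the lowest class to 1.67% in the highest, and the median of members lies above that of all annotated loci in each class.

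Of the 101 members with at least 5 CPM in muscle, the steadiest were XLOC_026092 (CV 14.2%), XLOC_034381 (14.5%), XLOC_039065 (15.6%), XLOC_018387 (15.7%) and XLOC_011446 (15.9%). XLOC_026092 had 8.87, 14.5, 13.2 and 15.1 CPM in CON calves and 17.03, 15.9, 14.6 and 16.7 CPM in 5-HTP calves, with CON calf 1 as the low value. The most variable were XLOC_040460 (99.5%), XLOC_040452 (92.2%), XLOC_008002 (90.6%), XLOC_011635 (86.1%) and XLOC_026602 (69.2%). XLOC_008002 had 25.6 CPM in CON calf 3, and the other calves ranged from 1.05 to 7.19 CPM. XLOC_026602 ranged from 1.31 to 11.2 CPM, with low and high calves in both groups.

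Most members were counted in every calf, and 38 had 0 counts in at least 1 muscle library. In a group of 3 loci, the same calves were at or near 0. XLOC_040460 had 6.45, 18.8, 0 and 12.9 CPM in CON calves and 0.319, 23.8, 26.4 and 0.111 CPM in 5-HTP calves. XLOC_040452 had 6.77, 11.6, 0 and 12.3 CPM in CON calves and 0.678, 16.01, 21.2 and 0.555 CPM in 5-HTP calves. XLOC_040461 had 1.79, 4.06, 0 and 3.59 CPM in CON calves and 0.0798, 2.86, 4.98 and 0.167 CPM in 5-HTP calves. In each, calves 3, 5 and 8 were low and the other 5 calves were high, which crosses the treatment groups.

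These 3 loci lay among 8 members within 13 consecutive numbers, XLOC_040449 to XLOC_040461. Among the annotated loci between them, ENSBTAG00000055259 had the same calves low, with 0.452, 0.199 and 0.111 CPM in calves 3, 5 and 8 and 5.60 to 17.7 CPM in the others. ENSBTAG00000001836, which was 2 numbers below XLOC_040452, was also lowest in these calves, at 4.30, 21.8 and 17.8 CPM against 25.1 to 80.8 CPM. The pattern did not extend to all the loci there. ENSBTAG00000026437, between XLOC_040452 and XLOC_040460, had 1.39 CPM in calf 8 and at most 0.423 CPM in the others. XLOC_040456 was counted at 5.06 CPM in calf 3 and 4.75 CPM in calf 5, and XLOC_040454 was highest in calves 5 and 8, at 5.34 and 3.39 CPM. The annotated neighbours and the 2 latter members were chosen after their values were seen.

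Of 36 members with 0 counts in a muscle library and at least 1 CPM in another, the 5 with the highest mean were examined. Beside the 3 loci above, these were XLOC_015012 and XLOC_032283. XLOC_015012 had 1.36 to 3.13 CPM in CON calves and 2.03, 0, 0.887 and 0 CPM in 5-HTP calves. XLOC_032283 had 10.4 CPM in the muscle of 5-HTP calf 8 and 0.439 CPM or less in the other calves. The adipose library of calf 8 was also the highest for this locus, at 1.61 CPM against 0.345 CPM or less in the other adipose libraries. Its place among the members rested on 1 calf.

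The effect of 5-HTP on the members in muscle was compared with a likelihood ratio test over 15624 loci, and 527 of the 541 members had enough counts to be tested. With the FDR threshold of 0.20 used in the study, 6 members (1.14%) were called, 3 higher and 3 lower in 5-HTP calves, where 0.218% of all loci tested were called (0.0768% higher and 0.141% lower). The share was 0.656% for the annotated loci that met the same values and 0.166% for the other detected XLOC-only loci. One of the 3 lower members, XLOC_012144, passed the filter on counts through the CON group alone, and without it 5 of 526 members (0.951%) were called, 2 of them lower. Among these 5, XLOC_018883 met the filter on its 5-HTP libraries by themselves, the group in which it was high. With the quasi-likelihood test of edgeR, 0 members were called at this FDR, where 0.00640% of all loci were called, and 39 members (7.40%) had an unadjusted P value at or under 0.05, where 4.46% of all loci did. DESeq2 called 4 members. Leaving out 1 library moved the count from 6 to between 1 and 16. It was 11 without CON calf 4, 1 without 5-HTP calf 5, 16 without 5-HTP calf 6, 3 without 5-HTP calf 7 and 3 without 5-HTP calf 8. For DESeq2 and these fits the share of all loci called is not given, so the counts are not set against it.

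As a group, the members had about as many higher as lower values. The median log2 fold change (log FC, 5-HTP relative to CON) was 0.02, with 272 members higher and 255 lower, and the median over all loci tested was -0.01. CON and 5-HTP calves did not overlap for 15 of the 527 members (2.85%), close to the 2.59% of all loci tested. At a P value at or under 0.01, 18 members (3.42%) passed, 10 higher and 8 lower, where 1.56% of all loci passed (0.442% higher and 1.12% lower). For the annotated loci that met the same values this share was 3.15%, and for the other detected XLOC-only loci it was 1.22%.

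A list supplied with the study pairs XLOC_017327 with TTN, the gene for titin, the giant elastic protein of the sarcomere. This locus had the smallest P value of the members. It had 33.5, 72.4, 49.1 and 38.6 CPM in CON calves and 18.3, 23.5, 14.0 and 23.9 CPM in 5-HTP calves. Every 5-HTP calf was below every CON calf, with means of 48.4 ± 17.3 CPM in CON and 19.9 ± 4.69 CPM in 5-HTP (SD, n = 4 each). The log FC was -1.29 (standard error 0.25, FDR = 0.00103 by the likelihood ratio test and 0.421 by the quasi-likelihood test of edgeR). The exact two-sided permutation p was 0.0286, the smallest that 4 against 4 calves can give. It stayed called in all 8 fits that left out 1 library, with an FDR of at most 0.0516.

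Some annotated loci numbered before XLOC_017327 were also lower in 5-HTP calves and others were not, and they were chosen after the values were seen. ENSBTAG00000054051, 4 numbers below it, had 41.1, 88.0, 51.4 and 49.5 CPM in CON calves and 24.2, 27.0, 22.9 and 23.4 CPM in 5-HTP calves. Its log FC was -1.24 (edgeR FDR = 8.38e-05), and that of ENSBTAG00000052033 and ENSBTAG00000053974 was -0.996 and -0.847, with FDRs of 0.0762 and 0.292 from edgeR. The loci on either side of XLOC_017327 were not called. ENSBTAG00000052348 below it had a log FC of -0.38, with 37.2, 256, 178 and 105 CPM in CON calves and 89.3, 119, 114 and 110 CPM in 5-HTP calves. ENSBTAG00000053626, 5 numbers below it, had a log FC of 0.39 and was not called, and ENSBTAG00000052709 above it, the most abundant of the group, had 0.12. The numbers thus hold both loci with a large difference and loci without a call.

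XLOC_030964 was higher in 5-HTP calves. The study's list pairs it with WDR86, a gene of the WD-repeat protein family. It had 5.60, 14.8, 23.7 and 8.59 CPM in CON calves and 54.6, 20.8, 46.4 and 37.1 CPM in 5-HTP calves. The groups overlapped, since CON calf 3 was above 5-HTP calf 6. The log FC was 1.59 (standard error 0.38, edgeR FDR = 0.0666), the exact permutation p was 0.0571, and the FDR was 0.0291 with DESeq2, 0.483 without 5-HTP calf 5 and 0.320 without 5-HTP calf 7. The same list pairs WDR86 also with ENSBTAG00000006232, whose number lies in another place. That annotated locus had 14.9, 25.6, 22.5 and 15.4 CPM in CON calves and 63.5, 23.2, 36.5 and 48.3 CPM in 5-HTP calves, with a log FC of 1.10 and an edgeR FDR of 0.0762. Both loci were highest in calf 5, and whether they share reads or strand cannot be told from the counts.

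The other 4 called members had no symbol. XLOC_040380 had 0.448, 0.507, 0.226 and 0.479 CPM in CON calves and 4.11, 1.08, 1.33 and 1.22 CPM in 5-HTP calves, so that the groups did not overlap and calf 5 was far above the rest. Its log FC was 2.15 (standard error 0.54, edgeR FDR = 0.0762). XLOC_018883 had 0.134, 0.465, 0.226 and 0.160 CPM in CON calves and 1.63, 0.563, 1.13 and 0.888 CPM in 5-HTP calves, with a log FC of 2.06 (standard error 0.54, edgeR FDR = 0.0979). Its counts were few, between 3 and 11 in CON libraries and between 12 and 41 in 5-HTP libraries. The 5-HTP libraries, in which it was high, were by themselves enough to pass the filter on counts. Without 5-HTP calf 5 the FDR of both was 0.604. XLOC_040380 stayed called in the other 7 fits that left out a library. XLOC_018883 stayed called in 4 of 8, and its FDR was 0.253 without CON calf 1, 0.405 without 5-HTP calf 7 and 0.239 without 5-HTP calf 8. It was also not called with DESeq2 (FDR = 0.215) or with no filter on counts (FDR = 0.252 in edgeR).

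Lower in 5-HTP calves were XLOC_012144 and XLOC_029760. XLOC_012144 had 0.941, 0.973, 0.904 and 0.998 CPM in CON calves and 0.160, 0.329, 0.345 and 0.278 CPM in 5-HTP calves. The CON calves were close together and all above the 5-HTP calves, and the log FC was -1.80 (standard error 0.47, edgeR FDR = 0.0762). This locus reached 10 counts in the 4 CON libraries alone, so it entered the test only through the group in which it was high, and it was tested in 4 of the 8 fits that left out a library and called in 2 of them, with an FDR of 0.604 without 5-HTP calf 5 and 0.305 without 5-HTP calf 8. It was also not called with DESeq2 (FDR = 0.247) or with no filter (FDR = 0.356 in edgeR). XLOC_029760 had 18.4, 8.08, 16.8 and 9.94 CPM in CON calves and 5.62, 7.42, 5.72 and 5.38 CPM in 5-HTP calves. Its groups were close but did not overlap, with a log FC of -1.20 (standard error 0.32, edgeR FDR = 0.155). It stayed called in 3 of the 8 fits that left out a library, with an FDR of 0.407 without CON calf 1, 0.293 without CON calf 3, and 0.661, 0.591 and 0.602 without 5-HTP calves 5, 7 and 8. For all 4 loci without a symbol the exact permutation p was 0.0286. These 4 loci and XLOC_030964 each had a quasi-likelihood FDR of 0.980 in edgeR.

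**Figure D5:**
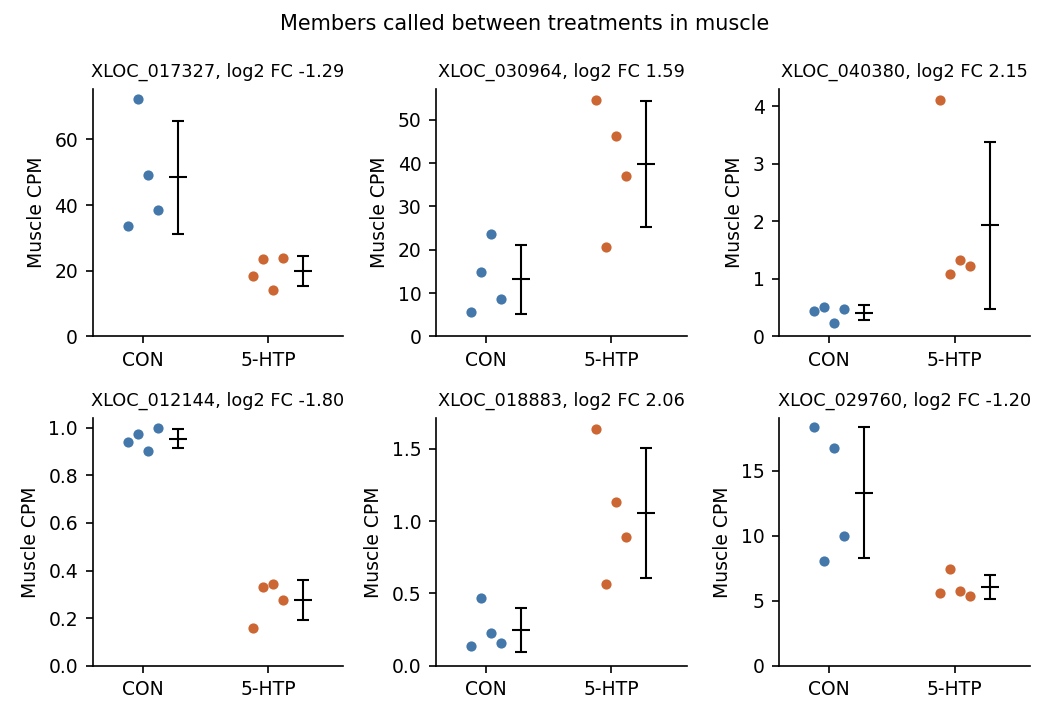
CPM in each muscle library of CON and 5-HTP calves for the 6 members called at an FDR at or under 0.20, with the mean and SD of 4 calves in black and each axis starting at 0. The groups are apart for 5 of the loci and overlap for XLOC_030964, and 5-HTP calf 5 is the highest 5-HTP library for the 3 loci that were higher.

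The members next in P value did not reach the FDR threshold. Higher in 5-HTP calves were XLOC_003025 (2.08 ± 0.387 CPM in CON and 4.36 ± 1.30 CPM in 5-HTP, log FC 1.03, edgeR FDR = 0.348) and XLOC_029995 (1.88 ± 1.28 and 4.57 ± 1.52 CPM, log FC 1.28, edgeR FDR = 0.478). Lower were XLOC_013137 (1.09 ± 0.557 and 0.361 ± 0.133 CPM, log FC -1.57, edgeR FDR = 0.387) and XLOC_011686 (5.10 ± 3.81 and 1.70 ± 0.976 CPM, log FC -1.69, edgeR FDR = 0.527), each as mean ± SD with n = 4. The groups did not overlap for XLOC_003025 and XLOC_013137. For XLOC_011686, CON calf 1 had 10.7 CPM and the other CON calves at most 4.15 CPM. Without CON calf 1 its log FC was -0.88.

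In adipose tissue, 46 members passed the filter on counts, since the rule chose loci that are low there. The likelihood ratio test of edgeR called 0 of them, where 0.111% of the 18872 loci tested were called, and 1 had an unadjusted P value at or under 0.05, where 4.42% of all loci did. The quasi-likelihood test, with 0.00530% of all loci called, and DESeq2 also called 0. The groups did not overlap for 3 of the 46, where 2.43% of all loci were so separated.

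Whether the effect of 5-HTP differed between the tissues was tested over 20534 loci in all 16 libraries. Of 527 members tested, 1 was called, where 0.0925% of all loci were called. Only 46 members passed the filter in adipose tissue by itself, so most entered this test through their muscle counts. The member called was XLOC_017327, with a difference in log FC of -5.93 and an FDR of 0.000354 by the likelihood ratio test of edgeR. With the calf as a block there were 2, XLOC_017327 (-5.81, FDR = 0.00139) and XLOC_030964 (1.63, FDR = 0.0552), where 0.0925% of all loci were called. Without calf 3 there were 2, and the share of all loci is not given for that fit. The quasi-likelihood test called 0, where 0% of all loci were called. By the likelihood ratio test, 54 of the 527 members had an unadjusted P value at or under 0.05, where 4.98% of all loci did. This share is not interpreted, since the members were chosen to be low in adipose tissue and most entered through muscle. For XLOC_017327 the adipose counts were 0 in all 4 CON libraries and 11, 1, 5 and 0 in the 5-HTP libraries, too few to measure an effect in adipose tissue. The size of the difference is therefore not interpreted. In muscle, the same locus had 285 to 1712 counts in each library.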

How the data were processed

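RNA was sequenced from the adipose tissue and the muscle of 8 calves, with 1 library per calf and tissue. Per the labels and methods, the authors trimmed reads (FastQC 0.11.7, Trim Galore 0.4.4), aligned them to ARS-UCD1.2 (Hisat2), built and merged transcript models (Cufflinks 2.2.1), and counted uniquely mapped reads per locus with htseq-count. The strand setting was not given in the sources used here. The deposited values are whole-number counts without normalization, in 44265 rows per library, with 1166 loci listed under more than 1 Ensembl identifier. One row per merged locus was kept (42862 loci), and CPM was computed over these.

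The members and lists were chosen with earlier results of these data known. Samples were grouped by labelled tissue and treatment. The labels number the calves in both tissues, and the number was taken as the calf, since the study took both tissues from each animal. Deviations of same-numbered libraries from their group means correlated at -0.25 to 0.32 (mean 0.13) over 12560 loci. Where nothing says otherwise, each library is 1 animal.

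Loci that reached 10 counts in at least 4 libraries were tested in R 4.3.3 with edgeR 4.0.16 (TMM, likelihood ratio test, Benjamini-Hochberg FDR over all loci tested, threshold 0.20), each tissue by itself, following the study. Standard errors come from the fitted negative binomial model. The tissue by treatment term was fitted over 16 libraries. Alternatives included DESeq2 1.42.0, the quasi-likelihood test, RLE or no TMM factors, other filters, every deposited row, XLOC-only loci, other thresholds, a calf block and leaving out each library. Single members were compared by exact two-sided permutation over the 70 arrangements of log2(CPM + 0.001). The treatment tests within a tissue (likelihood ratio, quasi-likelihood and DESeq2) were tried on simulated muscle counts with known differences. Tables and figures used Python 3.11.15.

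Members named were the 10 most abundant, those called and the 5 of lowest P value on each side, those paired with a symbol, those at the thresholds, the 5 most and least variable of at least 5 CPM, the 5 highest with 0 adipose counts, the 3 longest runs, the member next to the 10 most abundant annotated loci, and 5 with 0 counts in 1 calf and at least 1 CPM in another. The reference gene table paired 0 Ensembl identifiers with a symbol, so lists of cell type markers were not run, and 0 columns were left unmapped. The other 4 members next to the 100 most abundant annotated loci were named after their values were seen. The group from XLOC_036898 to XLOC_036926 was also chosen outside these lists.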

Additional observations from a re-analysis of the deposited data

Results flagged for a closer look

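In 74 groups of 4 libraries examined for a library far from the other 3, 4 were found, and chance gives about 1 in 20. XLOC_032283 had 10.4 CPM in the muscle of 5-HTP calf 8, where the next 5-HTP library had 0.439 CPM. XLOC_040380 had 4.11 CPM in 5-HTP calf 5, where the next had 1.33 CPM. XLOC_029760 had 7.42 CPM in 5-HTP calf 6, where the next had 5.72 CPM. The summed CPM of the members in the adipose library of CON calf 3 was 109, below 115 in the other CON calves. XLOC_017327 differed between tissues in its log FC by -5.93 (muscle less adipose tissue, edgeR FDR = 0.000354), a value that rests on 17 adipose counts in all.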

How the results depend on the processing

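Of the 541 members, the number was 863 with a mean of at least 0.25 CPM in muscle, 329 with at least 1 CPM and 101 with at least 5 CPM. It was 898 with TMM-normalized CPM over all 16 libraries, which raised muscle relative to adipose tissue by 1.17 on the log2 scale and kept all 541. It lay between 521 and 568 without 1 calf. The 6 members called between treatments in muscle became 0 with the quasi-likelihood test, 1 at an FDR at or under 0.05, 18 at a P value at or under 0.01 and between 1 and 16 without 1 library. The cause was not tested, and the share of all loci called without 1 library is not given here. In adipose tissue the count was 0 under each alternative run. The 1 member with a tissue by treatment difference became 2 with the calf as a replicate block, 0 with the quasi-likelihood test and between 1 and 2 without 1 calf. The block was not fitted within a tissue, where each calf has 1 library. The share of members next to an abundant muscle locus was 2.22% within 5 numbers and 4.25% for annotated loci of at least 100 CPM, against 0.924%. The other detected XLOC-only loci had 2.40% and 5.56% against 0.546%, so the order of the 2 groups turned. The groups differ in their share of loci inside the stretches without annotated loci, so this order is not interpreted. The median CV was 49.3% over all 8 libraries and 42.7% to 47.7% without 1 library. For the 10 members named for treatment, the log FC kept its sign in all 156 alternative values, 25 values lost the call and 6 gained it. Members under 1 CPM rest on few counts per library, and differences there may not be detectable at this depth.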
